A study of Mus musculus domesticus with 12 samples.

Results

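The G2 and mitosis genes described here were 39 protein-coding mouse genes whose products take a cell through the end of the cell cycle, where replicated chromosomes are condensed, aligned, separated and shared between daughter cells. They were taken from a list of gene symbols, and each symbol matched a single identifier among the 55385 in the tables, using the GENCODE mouse annotation on GRCm38. All 39 passed the filter on low counts that left 17650 genes for testing. They were sorted by textbook function into 8 roles, which are entry kinases and cyclins, spindle checkpoint and anaphase-promoting complex genes, the chromosomal passenger complex, centromere and kinetochore genes, kinesins, spindle assembly genes, cytokinesis genes, and Top2a with Mki67.

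The libraries came from C57BL/6J mouse fetal liver at E14.5, depleted of lineage-marked cells and infected with a retrovirus that expressed a short hairpin RNA (shRNA). The hairpin targeted Dis3 (shDis3) or Exosc10 (shExosc10), the 2 catalytic subunits of the RNA exosome that degrades and trims RNA, or firefly luciferase (shLuc), which mouse cells lack. After 2 days in erythroid expansion medium, GFP+ cells were sorted as CD71int Ter119- erythroid precursors and CD71int/+ Ter119- proerythroblasts, and their total RNA was sequenced in 4 libraries per group. The labels do not say whether replicates came from separate cultures or animals, so p-values reflect differences among these 12 samples alone, and that spread may be technical. Infection, culture and sorting were common to all 3 groups, and the number of hairpins used per gene is not given in the sources used here.

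In a dividing cell, cyclin B binds the kinase Cdk1, and phosphatases of the Cdc25 family switch the complex on so that the cell enters mitosis. The spindle checkpoint then holds the anaphase-promoting complex in check until every kinetochore is attached to microtubules, after which cyclin B is destroyed and the chromosomes part. Erythroid precursors at the stage sorted here divide rapidly, and most genes of this set are transcribed in G2 and mitosis, so in bulk RNA fewer dividing cells and less RNA per dividing cell cannot be told apart.

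Total counts lay between 14936178 in shDis3 library 2 and 32397192 in shDis3 library 3, and levels are given as CPM, which are counts scaled to a common library total with TMM factors, in the order of replicates 1 to 4. Dis3 measured 32.8, 24.7, 43.2 and 52.4 CPM in shDis3, 196, 130, 129.7 and 117 CPM in shExosc10 and 126, 126, 113 and 160.5 CPM in shLuc, and Exosc10 measured 117, 80.1, 116 and 141 CPM in shDis3, 30.8, 25.8, 18.9 and 30.2 CPM in shExosc10 and 85.4, 92.4, 102 and 113 CPM in shLuc. Each targeted transcript was therefore lower in all 4 libraries with its own hairpin than in any other library. By edgeR's quasi-likelihood test with Benjamini-Hochberg adjustment over all genes, Exosc10 fell in shExosc10 against shLuc, with a log2 fold change of -1.89 (adjusted p = 0.00502), while Dis3 in shDis3 against shLuc had a log2 fold change of -1.78 and an adjusted p of 0.0581, above the threshold of 0.05. All 13 erythroid markers passed the filter, and they summed to 1832 to 2726 CPM in shDis3, 2026 to 3682 CPM in shExosc10 and 1648 to 3460 CPM in shLuc.

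A few libraries were closer to a library outside their group than to any within it. Over all tested genes, log2 CPM in shDis3 library 3 correlated best with shLuc library 4 (r = 0.993), while within their own groups shDis3 library 3 reached 0.984 and shLuc library 4 reached 0.962. Likewise shDis3 library 4 and shExosc10 library 1 correlated at 0.991, and inside their groups they reached no more than 0.974 and 0.967. The shDis3 library 2 was likewise nearer to shLuc library 2 (0.974) than to its own group (0.964), and shLuc library 2 was nearer to shExosc10 library 2 (0.985) than to its own (0.983). These are correlations across genes, which are not independent replicates. Results are given with and without shDis3 libraries 3 and 4, shExosc10 library 1 and shLuc library 4, which form the closest pairs, and with and without shDis3 library 2. The shDis3 library 2 had the lowest total and the highest sum of olfactory receptor genes, which erythroid cells are not known to use (589 CPM, against 6.85 to 341 CPM elsewhere).

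No G2 or mitosis gene changed past the threshold in any comparison. In shDis3 against shLuc, 0 of 39 were called, 10 had a positive and 29 a negative log2 fold change, and the median was -0.08, beside 0.02 over all genes. In shExosc10 against shLuc, 0 of 39 were called, 22 were positive and 17 negative, and the median was 0.03, beside 0.02 over all genes. Between shDis3 and shExosc10, 0 of 39 were called, 11 were positive and 28 negative, and the median was -0.14, beside 0.01 over all genes. Over all genes the same test called 0.0% in shDis3 against shLuc, 0.00567% in shExosc10 against shLuc and 0.0113% in shDis3 against shExosc10, so a count of 0 members is no different from the background. DESeq2's test and limma on log2(TPM + 1) also called 0 members in each comparison.

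The direction of these counts depended on the scale. On log2(TPM + 1), 31 of 39 members were positive and 8 negative in shDis3 against shLuc, with a median of 0.12 beside 0.11 over all genes. In shExosc10 against shLuc 24 were positive and 15 negative on that scale, with a median of 0.07 beside 0.03 over all genes. For shDis3 against shExosc10 the scale gave 20 positive and 19 negative, with a median of 0.05 beside 0.07 over all genes.

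The counts were precise enough to bound the differences of nearly all members. The 95% interval of the log2 fold change lay inside a 2-fold change in either direction for 39 of 39 members in shDis3 against shLuc, against 46.2% of all genes. It did so for 39 of 39 in shExosc10 against shLuc, against 47.8%, and for 38 of 39 in shDis3 against shExosc10, against 44.5%. The exception was Kif20b, whose interval reached -1.01. Of 150 other G2 and mitosis genes outside the set, 89.3%, 94% and 89.3% lay inside a 2-fold change. The narrow intervals were therefore not particular to the members. Inside a 1.5-fold change lay 25, 18 and 14 members in the same order of comparisons, so smaller differences were not bounded for the others.

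**Figure D1:**
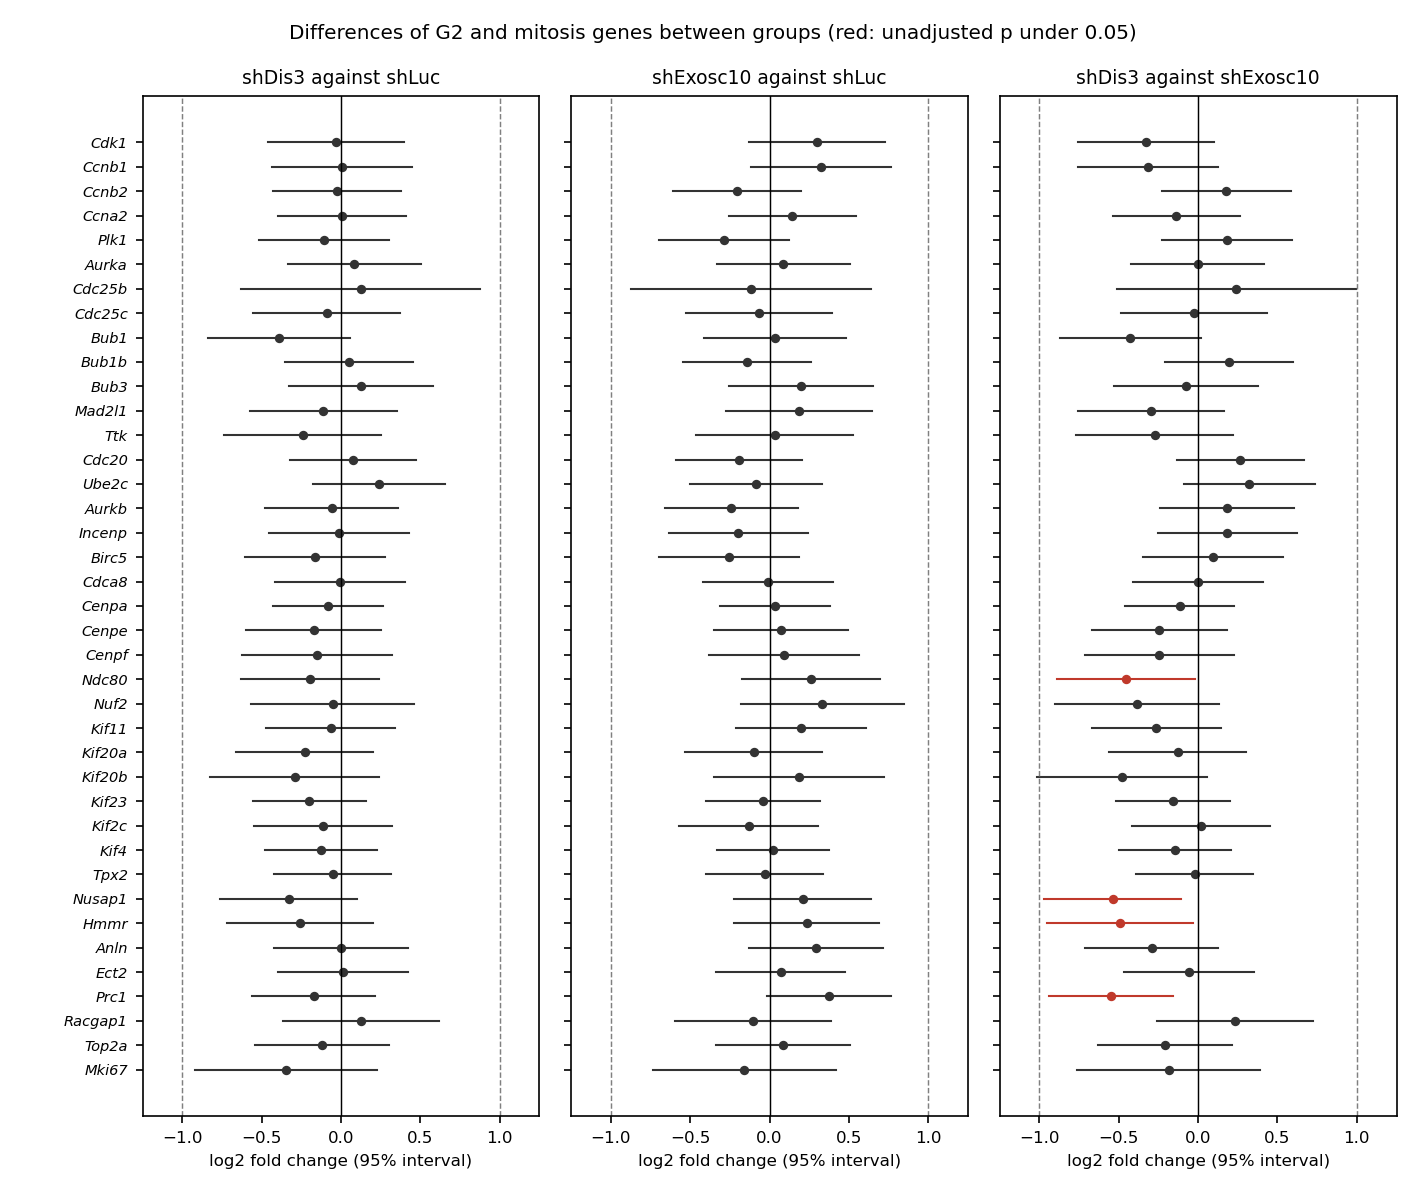
Log2 fold change (horizontal axis) of each of the 39 G2 and mitosis genes (rows, by role) in shDis3 against shLuc, shExosc10 against shLuc and shDis3 against shExosc10; points are edgeR estimates, lines are 95% intervals and dashed lines mark a 2-fold change. No gene passed the adjusted threshold, and the 4 red genes in shDis3 against shExosc10 (Ndc80, Nusap1, Hmmr and Prc1) had an unadjusted p under 0.05.

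Before adjustment, 0 of 39 members had a p under 0.05 in shDis3 against shLuc, where all genes gave 2.01% higher and 2.07% lower. None did in shExosc10 against shLuc, where all genes gave 0.912% higher and 1.19% lower. In shDis3 against shExosc10, 4 of 39 members were lower at that level and 0 higher, where all genes gave 2.79% lower and 3.18% higher. Few members had 4 libraries clear of all 4 libraries of the other group. In shDis3 against shLuc there were 0 such members, beside 0.907% of all genes higher and 0.793% lower. In shExosc10 against shLuc there were 2 higher, Ccnb1 and Prc1, and 0 lower, beside 1.02% of all genes higher and 1.46% lower. Set against shExosc10, shDis3 had 1 lower member, Prc1, and 0 higher ones, beside 1.8% of all genes lower and 1.91% higher. The comparisons share libraries, so their values are set side by side and not combined.

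Levels per transcript length, as the deposited TPM, which share a fixed total among transcripts, ranked the members within the shLuc libraries. Ube2c had the highest mean at 166 ± 62.5 TPM, followed by Mki67 at 146 ± 57.9, Birc5 at 115 ± 43.3 and Top2a at 112 ± 36.8 (means, SD, n = 4). The order of these genes was not the same in every library. In shLuc libraries 1 and 4, Mki67 lay above Ube2c and Top2a lay above Birc5. Ccnb1, Cdk1 and Ccna2 lay close together at 82.9 ± 27.1, 79.2 ± 26.6 and 78.7 ± 29.1 TPM, and these 3 did not differ beyond their spread. Ttk, Cdc25b and Cdc25c were lowest at 13.8 ± 1.34, 7.88 ± 5.4 and 7.21 ± 2.1 TPM. The libraries also differed in their content of small RNA genes, which enters every TPM value and is given with the summed levels.

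Among the entry kinases and cyclins, log2 fold changes against shLuc stayed between -0.10 and 0.12 in shDis3 and between -0.29 and 0.33 in shExosc10, with medians of -0.01 and 0.01 over 8 genes. On log2(TPM + 1) all 8 were positive in shDis3 against shLuc, with a median of 0.25. Cdk1 (chromosome 10, 69335146 to 69352938, minus strand, GRCm38), the kinase that drives mitotic entry, measured 69.1, 72.7, 61.2 and 105 CPM in shDis3, 122, 81.1, 104 and 79.99 CPM in shExosc10 and 87.2, 83.7, 72.1 and 72.2 CPM in shLuc. Ccnb1 (chromosome 13, 100778650 to 100786570, minus strand), which encodes the cyclin that activates it, measured 131, 119, 148 and 223 CPM in shDis3, 243, 166, 200.3 and 164 CPM in shExosc10 and 161, 157, 155 and 144 CPM in shLuc. For both genes shExosc10 library 1 was highest and shDis3 library 4 was the only high library of its group. The 4 shExosc10 libraries all lay above the 4 shLuc libraries for Ccnb1, by a log2 fold change of 0.33 (95% interval -0.11 to 0.77). In shDis3 against shLuc, Ccnb1 gave 0.01 (95% interval -0.43 to 0.45) and Cdk1 -0.03 (95% interval -0.46 to 0.39). Counts of Ccnb1 were not whole in any library, which RSEM gives where it divides reads between transcripts, and its pseudogene Ccnb1-ps had at most 60 counts in a library.

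Ccnb2, the second B-type cyclin, measured 88.2, 67.04, 79.2 and 112 CPM in shDis3, 95.8, 71.5, 72.7 and 66.2 CPM in shExosc10 and 78.5, 96.04, 98.6 and 79.5 CPM in shLuc. Ccna2, the cyclin of S phase and G2, measured 253, 207, 239 and 321 CPM in shDis3, 328, 294, 285 and 214 CPM in shExosc10 and 219, 289, 274 and 233 CPM in shLuc. For both of them the groups overlapped and shDis3 library 4 stood in the upper part of the range, at 112 and 321 CPM. Ccna2 overlaps Exosc9 on the opposite strand, and the strand setting of the counting is not given, so reads of the overlap cannot be assigned. The same holds for Cdc25b, Cdc20, Cdca8, Kif20a, Kif4, Nusap1 and Prc1, each of which overlaps an opposite-strand gene with a mean of at least 40.1 counts, while opposite-strand neighbours of the remaining members had a mean of at most 8.33 counts. Aurka, a kinase of centrosomes and spindle poles, measured 69.2, 48.8, 66.4 and 91.1 CPM in shDis3, 87.8, 68.4, 61.2 and 58.6 CPM in shExosc10 and 60.8, 64.4, 69.1 and 65.6 CPM in shLuc, and it too was highest in shDis3 library 4 and shExosc10 library 1.

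Plk1 and Cdc25b ran the other way across libraries. Plk1, a kinase that acts in mitotic entry and spindle formation, measured 113, 81.98, 107 and 65.03 CPM in shDis3, 70.3, 94.4, 81.4 and 76.9 CPM in shExosc10 and 85.5, 91.2, 104 and 113 CPM in shLuc. Its lowest libraries were shDis3 library 4 and shExosc10 library 1, which were the highest for Cdk1, Ccnb1 and Aurka. Cdc25b, a phosphatase that activates Cdk1, measured 31.5, 17.6, 11.6 and 10.7 CPM in shDis3, 8.3, 20.3, 15.2 and 16.7 CPM in shExosc10 and 10.6, 20.9, 18.8 and 15.2 CPM in shLuc, and shDis3 library 1 was the high one and shExosc10 library 1 the low one. Its SD of 0.51 over the 12 libraries on the log2 scale was the largest of the 39 genes, and its log2 fold change in shDis3 against shLuc was 0.12 (95% interval -0.63 to 0.88). Cdc25c, a related phosphatase, lay between 11.6 and 19.96 CPM in the 12 libraries, with overlapping groups.

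**Figure D2:**
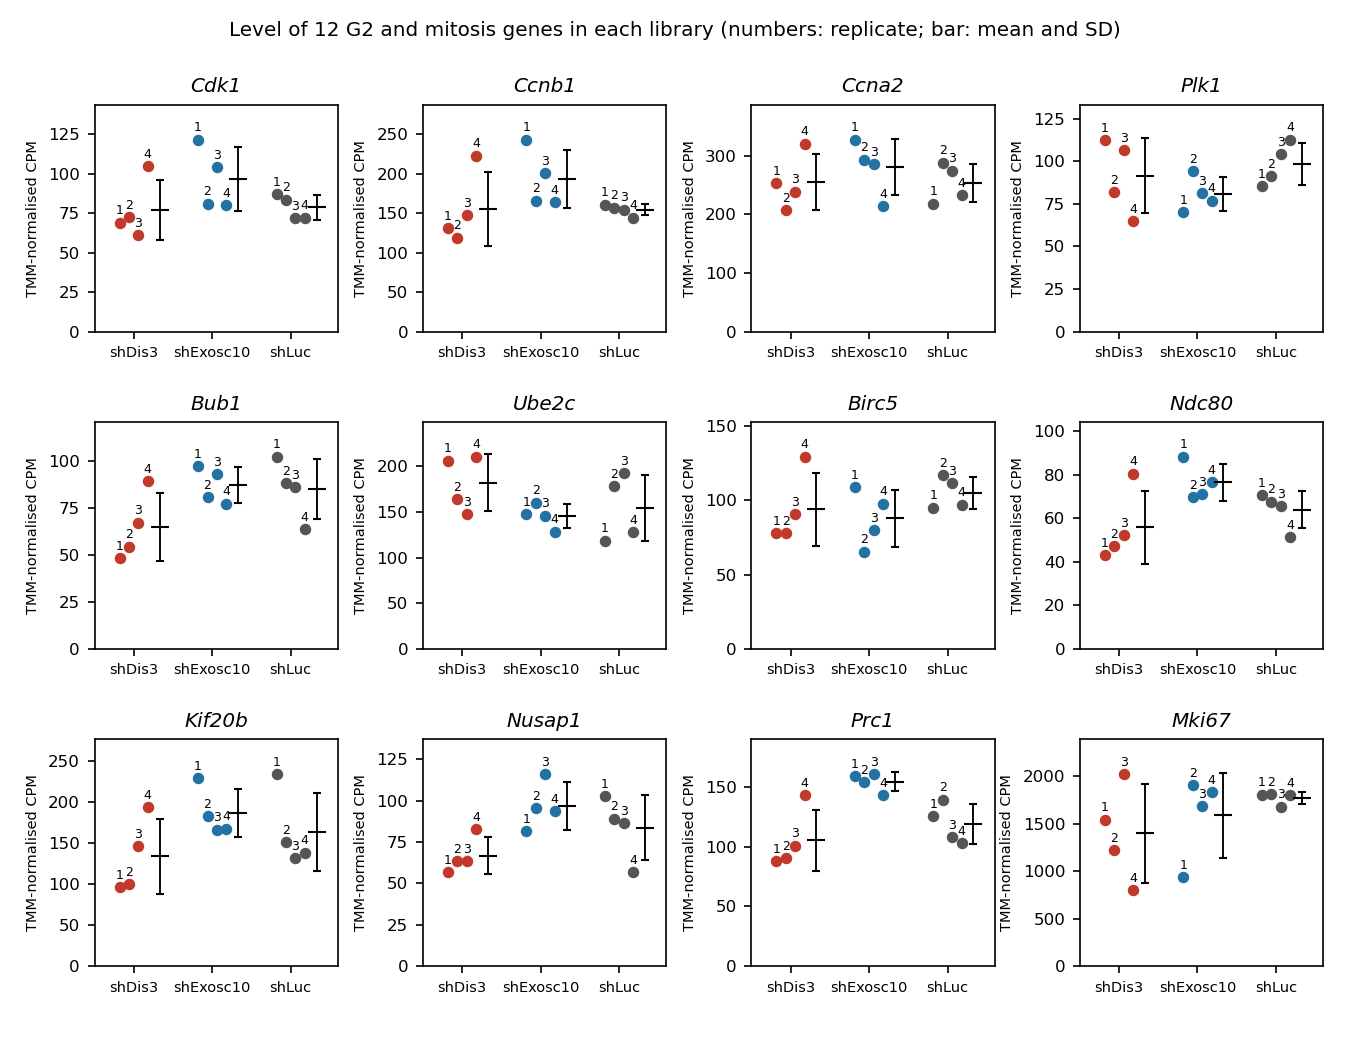
Normalised CPM (vertical axis, from 0) of 12 G2 and mitosis genes in each library of shDis3, shExosc10 and shLuc; points are libraries numbered by replicate, and bars are the mean and SD over 4 libraries. In shDis3, library 4 lies above the other 3 for Cdk1, Ccnb1, Ccna2, Bub1, Ube2c, Birc5, Ndc80, Kif20b, Nusap1 and Prc1 and below them for Plk1 and Mki67.

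Among the spindle checkpoint and anaphase-promoting complex genes, Bub1 had the most negative value of the set in shDis3 against shLuc and Ube2c the most positive. Bub1 (chromosome 2, 127801122 to 127831865, minus strand), a checkpoint kinase at kinetochores, measured 48.4, 54.4, 67.2 and 89.2 CPM in shDis3, 97.5, 80.7, 92.97 and 77.2 CPM in shExosc10 and 102, 88.1, 86.3 and 63.6 CPM in shLuc. Libraries 1 and 2 of shDis3 were the lowest of all 12 and library 4 lay within the shLuc range, so the groups overlapped. The log2 fold change was -0.39 (95% interval -0.84 to 0.05), with an adjusted p of 1 in edgeR's quasi-likelihood test. Ube2c (chromosome 2, 164769898 to 164778822, plus strand), the ubiquitin-conjugating enzyme of the anaphase-promoting complex, measured 206, 164, 148 and 211 CPM in shDis3, 148, 160.2, 146 and 128 CPM in shExosc10 and 118, 178, 192 and 128 CPM in shLuc. It was high in shDis3 libraries 1 and 4 and gave 0.24 (95% interval -0.17 to 0.65) in shDis3 against shLuc and 0.32 (95% interval -0.09 to 0.74) in shDis3 against shExosc10.

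Cdc20, which activates the anaphase-promoting complex, measured 122, 81.6, 103 and 115 CPM in shDis3, 96.1, 90.95, 85.6 and 78.4 CPM in shExosc10 and 80.2, 83.8, 122 and 114 CPM in shLuc, with 0.27 (95% interval -0.13 to 0.67) in shDis3 against shExosc10. Bub1b, which encodes the checkpoint protein BubR1, measured 172, 116, 196 and 197 CPM in shDis3, 173, 152, 135 and 135 CPM in shExosc10 and 151, 154, 156 and 195 CPM in shLuc. Mad2l1, which encodes the checkpoint protein Mad2, measured 68.3, 68.0, 61.5 and 96.8 CPM in shDis3, 113, 89.1, 83.4 and 76.5 CPM in shExosc10 and 99.1, 93.5, 68.8 and 56.5 CPM in shLuc. The groups overlapped for these 3 genes, and the library that stood apart differed from gene to gene, with shDis3 library 2 lowest for Bub1b and shLuc library 4 lowest for Mad2l1. Bub3, the partner of Bub1 and BubR1, lay between 77.9 and 143 CPM, and Ttk, the kinase that starts the checkpoint, between 26.6 and 52.2 CPM. Ttk was lowest in shDis3 libraries 1 and 2, at 26.7 and 26.6 CPM.

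The 4 genes of the chromosomal passenger complex, which corrects faulty attachments of chromosomes to the spindle, all had negative log2 fold changes against shLuc, -0.16 to -0.01 in shDis3 and -0.26 to -0.01 in shExosc10, while on log2(TPM + 1) all 4 were positive in shDis3 and 3 of 4 negative in shExosc10. Birc5, which encodes survivin, measured 77.9, 77.7, 90.6 and 129 CPM in shDis3, 109, 65.4, 80.0 and 97.8 CPM in shExosc10 and 95.1, 117, 111 and 97.1 CPM in shLuc. In shExosc10 it was low in library 2 and the groups overlapped, with -0.26 (95% interval -0.70 to 0.18) against shLuc. Aurkb, the kinase of the complex, measured 63.8, 43.1, 71.5 and 75.4 CPM in shDis3, 69.2, 49.7, 58.9 and 45.9 CPM in shExosc10 and 59.02, 64.8, 67.1 and 73.2 CPM in shLuc, with -0.24 (95% interval -0.66 to 0.18) in shExosc10 against shLuc. The scaffold gene Incenp lay between 142 and 282 CPM and Cdca8, which encodes borealin, between 65.4 and 106 CPM. Incenp was highest in shDis3 library 3 and shLuc library 4, the libraries most alike over all genes.

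All 5 centromere and kinetochore genes had negative log2 fold changes in shDis3 against shLuc (median -0.15) and in shDis3 against shExosc10 (median -0.24), and positive ones in shExosc10 against shLuc (median 0.09), while on log2(TPM + 1) all 5 were positive in shDis3 against shLuc and 4 of 5 were negative in shDis3 against shExosc10. Ndc80, which encodes the main microtubule-binding protein of the kinetochore, measured 42.9, 47.3, 52.3 and 80.4 CPM in shDis3, 88.2, 69.7, 71.1 and 76.7 CPM in shExosc10 and 70.6, 67.6, 65.5 and 51.4 CPM in shLuc. Libraries 1 to 3 of shDis3 lay below all 4 shExosc10 libraries and library 4 lay among them. The log2 fold change was -0.46 (95% interval -0.89 to -0.02) in shDis3 against shExosc10, with an adjusted p of 0.809 (edgeR quasi-likelihood test, Benjamini-Hochberg). Nuf2, its partner in the same complex, measured 63.4, 58.6, 76.2 and 125 CPM in shDis3, 142, 88.4, 109 and 83.4 CPM in shExosc10 and 92.3, 88.0, 79.1 and 76.1 CPM in shLuc, and shExosc10 library 1 was the highest, at 2.42 times the lowest. Cenpf, a protein of the outer kinetochore, measured 144, 130.1, 248 and 256 CPM in shDis3, 235, 223, 236 and 226 CPM in shExosc10 and 250.1, 209.8, 177 and 228 CPM in shLuc, with libraries 1 and 2 of shDis3 below the other 10. Cenpe, a kinetochore motor, lay between 188 and 343 CPM, and Cenpa, the histone variant that marks centromeres, between 64.95 and 89.7 CPM. Cenpa had the smallest SD of the 39, 0.16 on the log2 scale over 12 libraries.

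The 6 kinesins, motors that move along spindle microtubules, all had negative log2 fold changes in shDis3 against shLuc (median -0.16, -0.29 to -0.06) and 3 of 6 did in shExosc10 against shLuc, while on log2(TPM + 1) 3 of 6 were negative in both. Kif20b, a motor that acts in late cytokinesis, measured 96.2, 99.6, 146 and 194 CPM in shDis3, 229, 183, 167 and 168 CPM in shExosc10 and 234, 152, 132 and 138 CPM in shLuc. Libraries 1 and 2 of shDis3 were the lowest, while shExosc10 library 1 and shLuc library 1 were the highest, and the log2 fold changes were -0.29 (95% interval -0.83 to 0.24) against shLuc and -0.48 (95% interval -1.01 to 0.06) against shExosc10. Kif11, the motor that pushes spindle poles apart, measured 158, 152, 197 and 262 CPM in shDis3, 271, 206, 228 and 217 CPM in shExosc10 and 227, 199, 181 and 196 CPM in shLuc, again lowest in shDis3 libraries 1 and 2. Kif20a, of the central spindle, lay between 77.5 and 163 CPM, Kif23, of the centralspindlin complex, between 44.1 and 69.3 CPM, Kif2c, which depolymerises microtubules, between 37.6 and 69.2 CPM, and Kif4, which binds chromosomes, between 52.9 and 86.2 CPM. Each of these 4 was lowest in shDis3 library 2.

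Among the 3 spindle assembly genes, Nusap1 and Hmmr were among the lowest values of the set in shDis3 against both other groups. Nusap1, which bundles spindle microtubules, measured 56.6, 63.6, 63.5 and 82.7 CPM in shDis3, 81.5, 95.6, 116 and 93.5 CPM in shExosc10 and 103, 89.1, 86.3 and 56.6 CPM in shLuc. All shDis3 libraries lay at or below 82.7 CPM and all shExosc10 libraries but library 1 lay at or above 93.5 CPM, with shLuc library 4 as low as the lowest shDis3 library. The log2 fold change was -0.54 (95% interval -0.97 to -0.11) in shDis3 against shExosc10 (adjusted p = 0.769, edgeR quasi-likelihood test) and -0.33 (95% interval -0.76 to 0.10) against shLuc. Hmmr, a spindle protein and hyaluronan receptor, measured 137, 147, 162 and 253 CPM in shDis3, 269, 239, 263 and 211 CPM in shExosc10 and 258, 225, 194 and 160 CPM in shLuc, with -0.49 (95% interval -0.95 to -0.03) in shDis3 against shExosc10 (adjusted p = 0.801, same test). Library 4 of shDis3 lay within the shExosc10 range for Hmmr and the other 3 lay below it. Tpx2, which nucleates spindle microtubules and activates Aurka, lay between 184 and 284 CPM.

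Prc1 was the one gene of the set whose shDis3 and shExosc10 libraries did not overlap. Prc1 (chromosome 7, 80294450 to 80316259, plus strand), which bundles microtubules at the spindle midzone before cytokinesis, measured 87.9, 90.4, 101 and 143 CPM in shDis3, 159, 154, 161 and 143 CPM in shExosc10 and 126, 139.5, 108 and 103 CPM in shLuc. The highest shDis3 library reached 142.9 CPM and the lowest shExosc10 library 143.3 CPM, so the gap was small beside the spread. The log2 fold changes were -0.55 (95% interval -0.94 to -0.16) in shDis3 against shExosc10 (adjusted p = 0.747, edgeR quasi-likelihood test), 0.38 (95% interval -0.01 to 0.77) in shExosc10 against shLuc and -0.17 (95% interval -0.56 to 0.22) in shDis3 against shLuc. Of the other cytokinesis genes, Ect2, which activates the contractile ring GTPase, measured 55.2, 49.5, 59.1 and 86.4 CPM in shDis3, 75.6, 61.3, 68.3 and 55.3 CPM in shExosc10 and 71.3, 55.5, 60.6 and 60.9 CPM in shLuc. Racgap1, of centralspindlin, measured 70.6, 46.7, 85.97 and 95.5 CPM in shDis3, 85.1, 54.3, 60.4 and 54.5 CPM in shExosc10 and 62.4, 59.9, 65.1 and 85.98 CPM in shLuc, with overlapping groups and 0.13 (95% interval -0.36 to 0.62) in shDis3 against shLuc. Anln, a scaffold of the contractile ring, lay between 50.4 and 97.8 CPM.

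Mki67 (chromosome 7, 135689784 to 135716361, minus strand), which encodes the proliferation marker Ki-67 that coats mitotic chromosomes, had the highest CPM of the set. It measured 1543, 1218, 2023 and 800 CPM in shDis3, 934, 1908, 1681 and 1831 CPM in shExosc10 and 1804, 1811, 1680 and 1797 CPM in shLuc. The shDis3 library 4 and shExosc10 library 1 were the lowest and shDis3 library 2 came next, while the 4 shLuc libraries lay within 1680 to 1811 CPM. The log2 fold changes against shLuc were -0.34 (95% interval -0.92 to 0.23) in shDis3 and -0.16 (95% interval -0.73 to 0.42) in shExosc10. Top2a, the topoisomerase that untangles sister chromosomes, measured 439, 416, 575 and 758 CPM in shDis3, 713, 555, 629 and 627 CPM in shExosc10 and 669.8, 597, 546 and 563 CPM in shLuc, with the same 2 libraries highest. The 2 libraries that were lowest for Mki67 and Plk1 were thus the highest for Top2a.

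**Figure D3:**
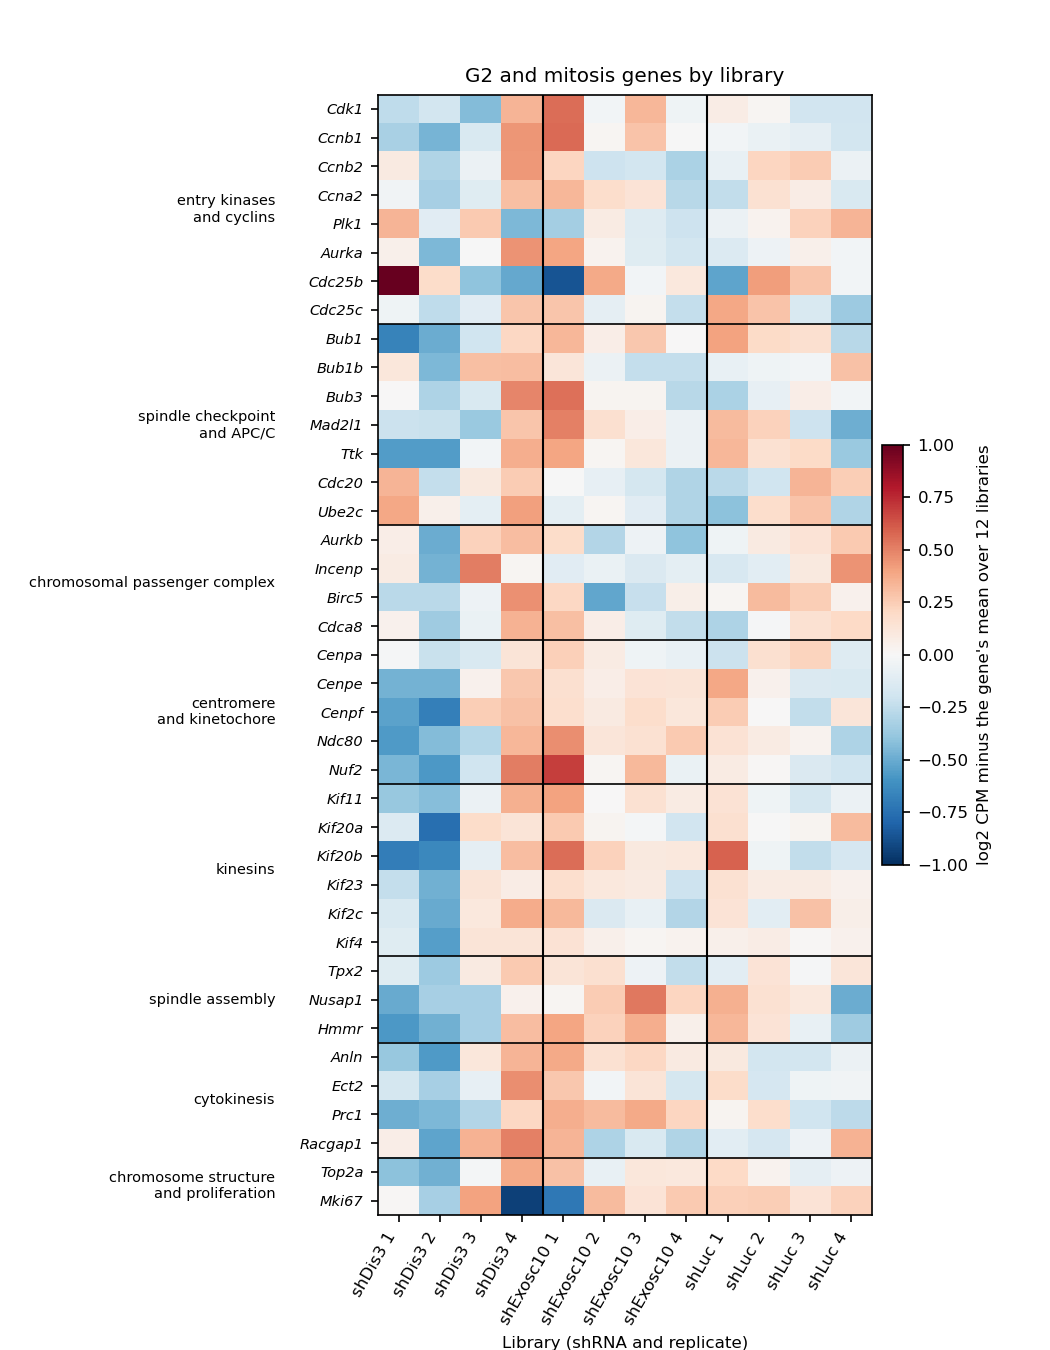
Log2 CPM of each of the 39 G2 and mitosis genes minus that gene's mean over the 12 libraries (colour, limits -1 to 1), with genes in rows by role and libraries in columns as shDis3, shExosc10 and shLuc. Most genes are low in shDis3 library 2 and high in shDis3 library 4 and shExosc10 library 1, where Mki67, Plk1 and Cdc25b are low.

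Within groups the 39 genes differed by library. The shDis3 library 2 held the lowest value for 21 of 39 genes (53.8%), against 13.4% of all genes, and shDis3 library 1 for another 7. The highest value lay in shDis3 library 4 for 13 genes (33.3%, against 11.5% of all genes) and in shExosc10 library 1 for 14 (35.9%, against 10.6%). The median deviation from the 12-library mean was -0.45 on the log2 scale in shDis3 library 2, -0.16 in shDis3 library 1, 0.31 in shDis3 library 4 and 0.28 in shExosc10 library 1, and it lay between -0.07 and 0.08 in the other 8. The shDis3 group thus held both the lowest and the highest library of the set. Over the 12 libraries the median SD of a member was 0.27 on the log2 scale, beside 0.44 over all genes and 0.30 over the 7030 genes with mean levels in the members' range.

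The direction of the shDis3 values depended on single libraries. Without shDis3 library 2 the median of the 39 genes in shDis3 against shLuc was 0.01, with 20 positive and 19 negative, and without shDis3 library 4 it was -0.21, with 5 positive and 34 negative. For shDis3 against shExosc10 the median was -0.05 without shDis3 library 2, -0.06 without shExosc10 library 1 and -0.24 without shDis3 library 4. Granulocyte markers, of which all 12 passed the filter, also differed between libraries. They summed to 2139 to 4925 CPM in shDis3, 1350 to 2120 CPM in shExosc10 and 1097 to 4290 CPM in shLuc, and shDis3 library 1, shLuc library 4 and shDis3 library 2 were the 3 highest. Megakaryocyte markers, also 12 of 12, summed to 312.5 to 377.8 CPM in shDis3, 140.5 to 346.5 CPM in shExosc10 and 87.9 to 430.7 CPM in shLuc. Stem and early progenitor markers, 11 of 11, summed to 421.4 to 744.1 CPM in shDis3, 315.2 to 720.5 CPM in shExosc10 and 303.9 to 805.2 CPM in shLuc. Macrophage and monocyte markers, 9 of 13, summed to 116.6 to 183.6 CPM in shDis3, 86.7 to 146.7 CPM in shExosc10 and 97.4 to 140.3 CPM in shLuc.

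No marker was called, but the granulocyte, megakaryocyte, stem and progenitor and macrophage lists leaned one way where shDis3 was compared. In shDis3 against shLuc the median log2 fold change was 0.75 for granulocyte (9 of 12 positive), 0.84 for megakaryocyte (11 of 12), 0.36 for stem and progenitor (11 of 11) and 0.68 for macrophage markers (7 of 9). Against shExosc10 it was 0.52 for granulocyte (11 of 12), 0.91 for megakaryocyte (11 of 12), 1.01 for stem and progenitor (10 of 11) and 0.54 for macrophage markers (7 of 9). The other lists were mixed. Against shLuc, positive were 6 of 13 erythroid (median -0.03), 4 of 7 mast cell, 1 of 6 lymphoid, 2 of 3 hepatocyte and 3 of 5 endothelial markers. Against shExosc10, positive were 5 of 13 erythroid (median -0.15), 7 of 7 mast cell, 3 of 6 lymphoid, 1 of 3 hepatocyte and 5 of 5 endothelial markers. The part of other cell types and of library 2's low depth in the values of the G2 and mitosis genes was not tested.

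Comparing the libraries that resembled each other gave no common direction. In shDis3 library 3 against shLuc library 4, 24 of 39 genes were higher and 15 lower, with a median difference of 0.02 on the log2 scale (-0.37 for Cdc25b to 0.34 for Ttk). In shDis3 library 4 against shExosc10 library 1, 19 were higher and 20 lower, with a median of -0.02 (-0.24 for Kif20b to 0.51 for Ube2c). Single libraries carry no test. The pairs were chosen for their likeness over all genes, so small differences were favoured by that choice.

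Some members passed the threshold only when the libraries that resembled another group were left out. The libraries left out came from the closest pairs across groups over all genes, so leaving them out sets the groups further apart by construction. Libraries 2 of shDis3 and shLuc, also nearest to a library of another group, were kept. All genes called then numbered 772, against 0 with all libraries, in shDis3 against shLuc, and 617, against 2, in shDis3 against shExosc10. The shDis3 libraries kept include 1 and 2, the lowest for this set, so the calls that follow describe those libraries and are no independent support for a difference. Without shDis3 library 4, shExosc10 library 1 and shLuc library 4, Bub1 was lower in shDis3 than in shLuc with a log2 fold change of -0.70 (SE 0.18, adjusted p = 0.0388, edgeR quasi-likelihood test), 1 of 39 members beside 1.19% of all genes called lower. In shDis3 against shExosc10 without the same 3 libraries, Ndc80, Nusap1, Hmmr and Prc1 were lower, with log2 fold changes of -0.63, -0.75, -0.69 and -0.73 (adjusted p = 0.0452, 0.0236, 0.0437 and 0.0265, same test), 4 of 39 beside 1.2%. When shDis3 library 3 was left out as well, so that shDis3 kept only libraries 1 and 2, Bub1 and Ttk were lower than in shLuc, with log2 fold changes of -0.88 and -0.83 (adjusted p = 0.0204 and 0.0281), 2 of 39 beside 1.1%. In that setting Prc1 was lower in shDis3 than in shExosc10, at -0.79 (adjusted p = 0.0492), 1 of 39 beside 0.825%. With all 12 libraries kept and the resembling libraries entered as a factor beside group, 0 members were called, beside 0.181% of all genes in shDis3 against shLuc and 0.136% in shDis3 against shExosc10, with member medians of -0.19 and -0.20. No member was called in shExosc10 against shLuc in any of these settings. Over the 21 alternative settings the adjusted p ran up to 1 for each of these genes, and the log2 fold change ran from -0.88 to -0.14 for Bub1 and from -0.83 to -0.04 for Ttk in shDis3 against shLuc.

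The 39 genes together made up 0.534% to 0.723% of counts. Summed, they came to 5672, 4764, 6772 and 6630 CPM in shDis3, 6662, 6783, 6707 and 6418 CPM in shExosc10 and 6832, 6703, 6404 and 6468 CPM in shLuc. In TPM the sums were 2190, 1492, 2767 and 1897 in shDis3, 2072, 1792, 2042 and 1886 in shExosc10 and 1212, 2204, 1541 and 2761 in shLuc. The shLuc library 1 was highest in CPM and lowest in TPM. Annotated small RNA genes took 463400 TPM of that library and 176800 to 400100 TPM of the others, and TPM divides a fixed total among all genes of a library.

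**Figure D4:**
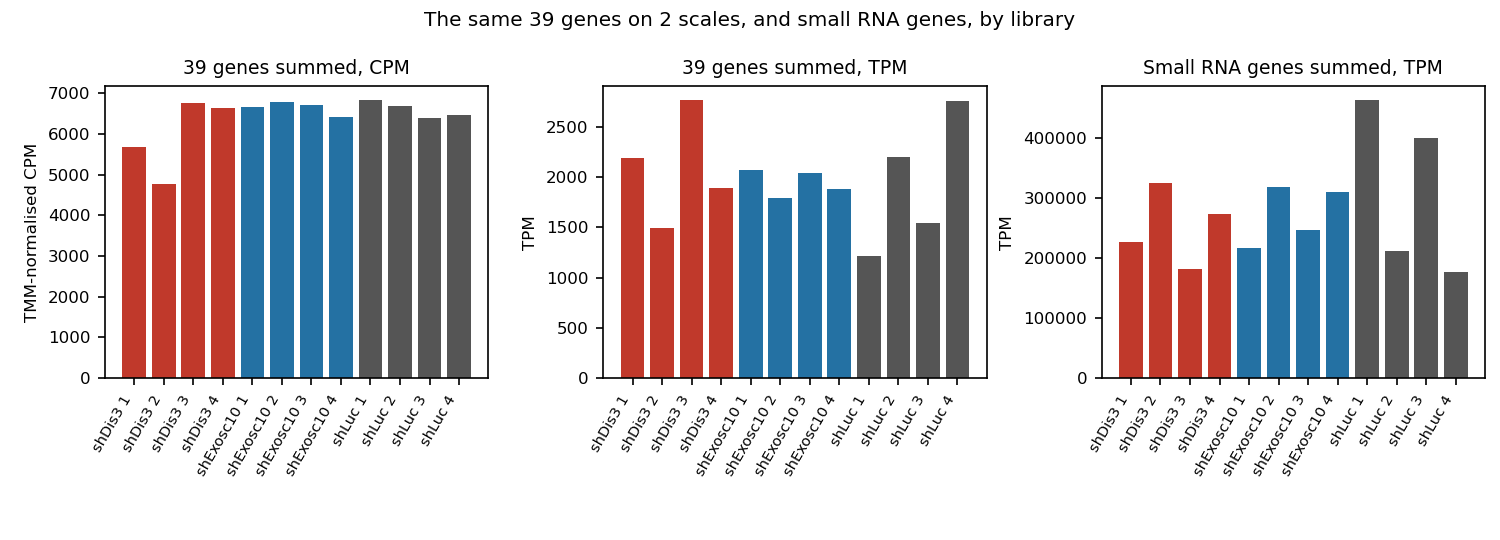
Sum of the 39 G2 and mitosis genes in normalised CPM (left), in TPM (middle) and the sum of annotated small RNA genes in TPM (right), for each library of shDis3 (red), shExosc10 (blue) and shLuc (grey); bars start at 0. The CPM sums lie within 4764 to 6832, and the lowest of the TPM sums, which run between 1212 and 2767, is in shLuc library 1, where the small RNA sum is highest.

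Genes of the same processes outside the set gave the same picture by count. Of 150 other measured G2 and mitosis genes, 0 were called in each comparison, with medians of -0.08 in shDis3 against shLuc (46 positive, 104 negative), 0.01 in shExosc10 against shLuc (80 positive, 70 negative) and -0.07 in shDis3 against shExosc10 (62 positive, 88 negative). Of 43 S phase and replication genes, 0 were called, with medians of -0.09, -0.04 and -0.06. The 37 other kinetochore and checkpoint genes had medians of -0.13, 0.06 and -0.23 in the same order of comparisons. In shDis3 against shExosc10 the lowest of them was Cenph, of the inner kinetochore, at 20.4 ± 7.77 CPM in shDis3, 34.9 ± 3.77 in shExosc10 and 28.4 ± 4.31 in shLuc, with a log2 fold change of -0.77 (SE 0.23). Cenpn, which binds the centromeric nucleosome, was lowest against shLuc for both hairpins, at 23.1 ± 6.22 CPM in shDis3, 21.3 ± 6.54 in shExosc10 and 33.6 ± 4.04 in shLuc. In shDis3 against shLuc the top of that list was Cenpm at 0.48 (SE 0.23), and in shExosc10 against shLuc it was Oip5, which helps to load the centromeric histone and overlaps Nusap1, at 0.38 (SE 0.24).

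Of the other mitotic entry regulators, Pbk, a mitotic kinase, was lowest in shDis3 against shLuc (-0.34, SE 0.21) and against shExosc10 (-0.40, SE 0.21), while in shExosc10 against shLuc Arpp19, an inhibitor of a phosphatase that opposes Cdk1, was highest (0.22, SE 0.19) and Cdc25a, another Cdc25 phosphatase, was lowest (-0.33, SE 0.20). Among anaphase-promoting complex genes, the subunit gene Cdc26 was highest against shLuc for both hairpins, at 48.8 ± 10.7 CPM in shDis3, 52.5 ± 7.49 in shExosc10 and 35.4 ± 3.34 in shLuc. The lowest of that list were the subunit gene Anapc10 in shDis3 against shLuc (-0.42, SE 0.28) and shExosc10 (-0.43, SE 0.28), and Ube2s, which extends ubiquitin chains, in shExosc10 against shLuc (-0.35, SE 0.16), while Anapc2, of the catalytic core, was highest in shDis3 against shExosc10 (0.35, SE 0.19). Condensin genes, which compact chromosomes, ran from Smc4 at -0.25 (SE 0.17) to Ncaph2 at 0.02 (SE 0.19) in shDis3 against shLuc and from Ncapd2 at -0.35 (SE 0.23) to Smc2 at 0.27 (SE 0.21) in shExosc10 against shLuc. Between shDis3 and shExosc10, Smc2 was lowest (-0.46, SE 0.21) and Ncapd2 highest (0.26, SE 0.23). Cohesin genes ran from Wapl, which releases cohesin, at -0.35 (SE 0.18) to Cdca5, which protects it, at 0.06 (SE 0.22) in shDis3 against shLuc. They ran from Espl1, the protease that cuts cohesin, at -0.27 (SE 0.21) to Esco2, which acetylates it, at 0.35 (SE 0.23) in shExosc10 against shLuc, and from Esco2 at -0.48 (SE 0.24) to Espl1 at 0.19 (SE 0.21) in shDis3 against shExosc10. None of these passed the threshold.

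Among other spindle genes, Gas2l3, a linker of actin and microtubules, was lowest in shDis3 against shLuc and against shExosc10 (-0.61, SE 0.20 and -0.56, SE 0.20), while in shExosc10 against shLuc Ckap2, a microtubule-binding protein, was highest (0.33, SE 0.23) and Numa1, of the spindle poles, lowest (-0.32, SE 0.26). Of the S phase genes, Ccne2, the cyclin E gene, was lowest in shDis3 against both groups, at 48.8 ± 10.98 CPM in shDis3, 81.4 ± 8.41 in shExosc10 and 78.3 ± 31.9 in shLuc. Rfc2, of the clamp loader, was highest in shDis3 against shLuc (0.25, SE 0.26), and Pold1, a replicative polymerase, in shDis3 against shExosc10 (0.36, SE 0.21). In shExosc10 against shLuc, Gins4, of the replicative helicase, was highest (0.25, SE 0.21) and Cdt1, which licenses origins, lowest (-0.48, SE 0.25). With the same libraries left out as for the 39 genes, and with the same limit, a few genes of these lists were called too. Without the 3 libraries, Cdkn1c, Ska1, Cenph, Depdc1a, Ccne2 and Rfc4 were called lower in shDis3 against shLuc, and Cdkn1c, Cenph and Ccne2 against shExosc10. Against shLuc these were 4 of 150 other G2 and mitosis genes and 2 of 43 S phase genes, beside 1.19% of all genes. Against shExosc10 they were 2 of 150 and 1 of 43, beside 1.2% of all genes. Without the 4 libraries, Cdkn1c, Ncapg, Kntc1, Ska1, Cenph, Cenpn, Depdc1a, Gas2l3, Cdc6 and Ccne2 were called lower in shDis3 against shLuc, and Cdkn1c, Cenph and Gas2l3 against shExosc10. Against shLuc these were 8 of 150 and 2 of 43, beside 1.1% of all genes called lower. Against shExosc10 they were 3 of 150 and 0 of 43, beside 0.825%. The genes called higher, Cdkn1a and Psrc1, are described further on. No gene of these lists was called in shExosc10 against shLuc. E2f4, a repressor of cell cycle genes, was the lowest transcription regulator in shExosc10 against shLuc (-0.67, SE 0.27).

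Psrc1, Cdkn1a and Gtse1 headed 3 of the other lists in shDis3 against shLuc. Cdkn1a, which encodes the CDK inhibitor p21, measured 128, 92.6, 40.95 and 53.6 CPM in shDis3, 22.1, 80.7, 70.99 and 48.8 CPM in shExosc10 and 45.7, 54.2, 64.5 and 18.7 CPM in shLuc. Psrc1, a microtubule-binding protein, measured 108, 78.9, 39.8 and 74.8 CPM in shDis3, 35.8, 50.1, 48.9 and 41.5 CPM in shExosc10 and 39.4, 44.97, 50.1 and 16.96 CPM in shLuc. Gtse1, a microtubule-bound regulator of p53, measured 113, 76.8, 62.5 and 103 CPM in shDis3, 44.6, 66.3, 63.2 and 42.2 CPM in shExosc10 and 64.99, 56.5, 66.3 and 48.3 CPM in shLuc. All 3 genes were highest in shDis3 library 1, and the groups overlapped. Their log2 fold changes in shDis3 against shLuc were 0.78 (SE 0.44) for Cdkn1a, 0.99 (SE 0.32) for Psrc1 and 0.59 (SE 0.22) for Gtse1, all with an adjusted p of 1 by edgeR's quasi-likelihood test. Psrc1 and Gtse1 also headed their lists in shDis3 against shExosc10, at 0.77 (SE 0.32) and 0.72 (SE 0.22), and Cdkn1a did so at 0.50 (SE 0.44) there and at 0.28 (SE 0.44) in shExosc10 against shLuc.

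These 3 genes were chosen as the highest of their lists with the same libraries in the fit, so their values in the pairs of libraries most alike describe the data and add no support. In shDis3 library 3 and shLuc library 4, Cdkn1a measured 40.95 and 18.7 CPM, Psrc1 39.8 and 16.96 CPM, and Gtse1 62.5 and 48.3 CPM. In shDis3 library 4 and shExosc10 library 1 the values were 53.6 and 22.1 CPM, 74.8 and 35.8 CPM, and 103 and 44.6 CPM in the same order of genes. In the fit without shDis3 library 4, shExosc10 library 1 and shLuc library 4, none of the 3 passed the threshold in shDis3 against shLuc (adjusted p = 0.361 for Cdkn1a, 0.178 for Psrc1 and 0.463 for Gtse1, edgeR quasi-likelihood test). When shDis3 library 3 was left out too, Cdkn1a and Psrc1 passed it (adjusted p = 0.0205 and 0.00591) and Gtse1 did not (0.274). In that setting Psrc1 also passed it in shDis3 against shExosc10 (0.99, adjusted p = 0.012, same test). There Cdkn1a and Gtse1 did not (adjusted p = 0.154 and 0.141). Called higher in shDis3 in that setting were 2 of 150 other G2 and mitosis genes against shLuc, beside 485 of 21703 genes in all. Against shExosc10 it was 1 of 150, beside 287 of 21703. With the resembling libraries, which were defined from the same expression values, as a factor beside group, Cdkn1a passed the threshold in shDis3 against shLuc (1.11, SE 0.19, adjusted p = 0.0206, edgeR quasi-likelihood test) and so did Psrc1 (1.11, SE 0.15, adjusted p = 0.00402), while Gtse1 did not (0.60, SE 0.18, adjusted p = 0.23). Psrc1 also passed it in shDis3 against shExosc10 (1.04, SE 0.15, adjusted p = 0.00962), and Cdkn1a and Gtse1 did not (adjusted p = 0.0761 each). With that factor 2 of 150 other G2 and mitosis genes were called higher against shLuc, beside 27 of 17650 genes in all. Against shExosc10 it was 1 of 150, beside 14 of 17650. Over the 21 alternative settings in shDis3 against shLuc the log2 fold change ran from 0.43 to 1.11 for Cdkn1a, from 0.75 to 1.24 for Psrc1 and from 0.42 to 0.76 for Gtse1, and the adjusted p ran up to 1 for each.

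**Figure D5:**
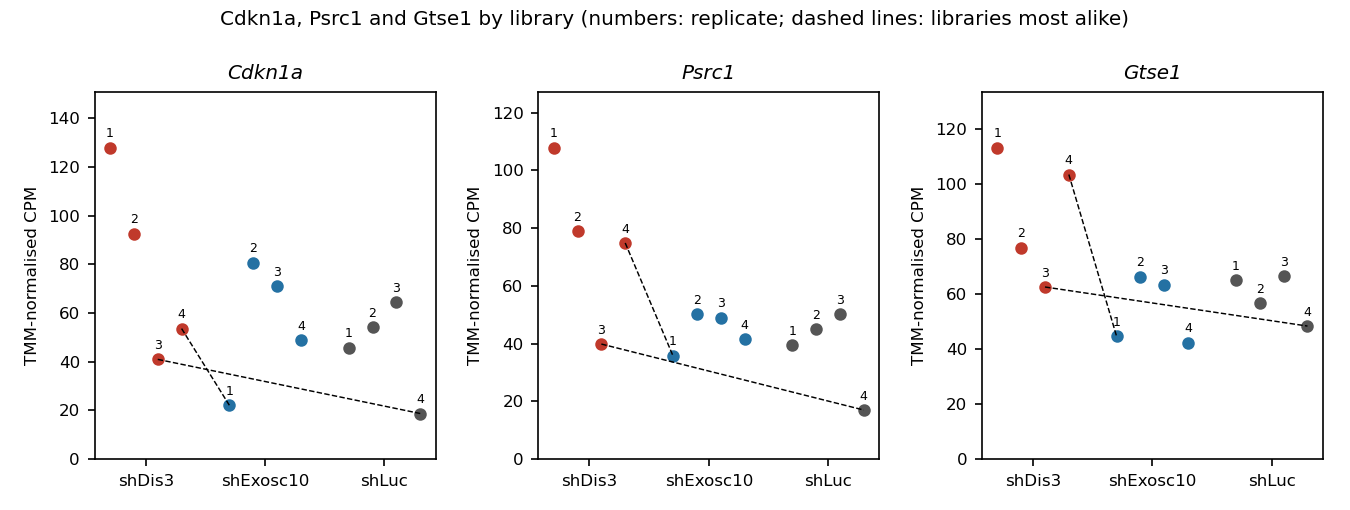
Normalised CPM (vertical axis, from 0) of Cdkn1a, Psrc1 and Gtse1 in each library of shDis3, shExosc10 and shLuc; points are libraries numbered by replicate, and dashed lines join shDis3 library 3 with shLuc library 4 and shDis3 library 4 with shExosc10 library 1. Both lines run downward away from shDis3 in all 3 panels, and shDis3 library 1 is the highest point of each.

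Cdkn1c, which encodes the CDK inhibitor p57, was the lowest gene of the regulator list in shDis3 against shLuc (-3.10, SE 0.90) and against shExosc10 (-2.56, SE 0.89). It measured 1.58, 1.73, 1.62 and 0.333 CPM in shDis3, 0.568, 5.1, 6.005 and 19.4 CPM in shExosc10 and 10.03, 14.3, 19.8 and 1.14 CPM in shLuc. The shExosc10 library 1 and shLuc library 4 were as low as the shDis3 libraries, so the groups overlapped. Without shDis3 library 4, shExosc10 library 1 and shLuc library 4 it was among the genes called lower in shDis3 in both comparisons, and with the resembling libraries as a factor it was not called. Foxm1, a transcription activator of G2 and mitosis genes, measured 70.5, 44.8, 95.6 and 32.4 CPM in shDis3, 39.97, 50.8, 51.5 and 64.3 CPM in shExosc10 and 68.2, 55.98, 73.2 and 89.4 CPM in shLuc. Mybl2, which acts with it, measured 97.6, 61.3, 127 and 67.99 CPM in shDis3, 73.8, 82.7, 80.8 and 85.9 CPM in shExosc10 and 99.1, 89.3, 99.4 and 130 CPM in shLuc. Both were lowest or next to lowest in shDis3 library 4, where most of the 39 genes were high.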

How the data were processed

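The deposited tables held, per gene and library, expected counts and TPM. Per the file headers the expected counts and TPM values the authors deposited are RSEM gene estimates, and per the submitters' processing notes STAR 2.5.3a, RSEM 1.3.0 and the mouse build GRCm38 (mm10) were used, with roles and order not stated. The labels' protocols name a stranded total RNA kit. How strand was set in the counting, and any filters, are not stated there. Identifiers were matched to the GENCODE annotation on GRCm38, 54487 of 55385 with their version.

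Expected counts, of which 4.55% were not whole (tolerance 0.001), were rounded and tested in R 4.3.3 with edgeR 4.0.16 (TMM factors, filterByExpr by group, quasi-likelihood F test, 12 libraries in one fit, 3 comparisons, Benjamini-Hochberg over 17650 genes, threshold 0.05). SE is the log2 fold change over the root of F, and 95% intervals used a t quantile of 2.139. The biological coefficient of variation was 60%. Both totals of 14936178 to 32397192 counts and the spread between libraries limit precision, and no 2 libraries were duplicates. For the members the lowest count in a library was 201, for Cdc25b, and the median SD within groups was 0.27 on the log2 scale. The code was tested on simulated counts with planted changes. Of planted 2-fold changes the test recovered 43.3%, 37.3% and 53.7% in shDis3 against shLuc, shExosc10 against shLuc and shDis3 against shExosc10. Of planted 4-fold changes it recovered 97%, 95.5% and 96.2% in the same order. The simulated libraries were drawn independently, without the likeness across groups seen here, and with many changed genes. These rates therefore check the code and do not tell what the test could call in the real libraries. There Dis3 in shDis3 against shLuc, at -1.78, was not called (adjusted p = 0.0581, edgeR quasi-likelihood test).

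The 39 members, the other lists and the tests were chosen with earlier results of these data known. Values per library are printed for a set list of 20 members and for the 3 largest positive and 3 largest negative members of each comparison. Ndc80 and, in part, Ttk were added after their values were seen. Of the other lists, the largest positive and negative gene per comparison is named, and Foxm1 and Mybl2 were added after their values were seen. The alternatives were other size factors, no filter, the 2 groups alone, a replicate block, each library left out, the libraries that resemble another group left out or entered as a factor, DESeq2 1.42.0, and limma 3.58.1 on log2(TPM + 1). A planned search of promoter letters was not run, and no sequence is printed.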

Additional observations from a re-analysis of the deposited data

Results flagged for a closer look

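The 39 members, their summed CPM and their summed TPM gave 123 sets of 4 libraries over the groups. In each set, the highest or lowest library was tested for its distance from the others against Dixon's 95% limit. Chance gives about 1 in 20, or 6.15 sets, and 2 were found. Bub1b was highest in shLuc library 4 at 195.4 CPM, beside 151.0 to 156.0 CPM in the other 3 shLuc libraries, a gap of 0.887 of the range. Mki67 was lowest in shLuc library 3 at 1680 CPM, beside 1797 to 1811 CPM in the other 3 shLuc libraries, a gap of 0.893 of the range.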

How the results depend on the processing

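In shDis3 against shLuc, all genes called by the adjusted p numbered 0 with edgeR's quasi-likelihood test, 1 with DESeq2 size factors, 123 with no filter, 772 and 724 without the 3 and the 4 libraries that resemble another group, 32 with those libraries as a factor and 28 with DESeq2's own test. Leaving out one library at a time gave 0 to 146, the highest without shLuc library 4. Members called there numbered 1 and 2 without the 3 and the 4 libraries, and the members' median was -0.38 without the 4 libraries and 0.12 with limma on log2(TPM + 1).

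In shExosc10 against shLuc, where 1 gene was called with all 12 libraries, the counts were 10 with no filter, 3 and 7 without the 3 and the 4 libraries, 4 with the factor, 6 with DESeq2, 0 with limma and 0 to 2 with one library left out. In shDis3 against shExosc10, where 2 were, the counts were 179 with no filter, 1 with the 2 groups alone, 617 and 466 without the 3 and the 4 libraries, 24 with the factor, 48 with DESeq2, 0 with limma and 1 to 2 with one library left out. Members called there numbered 4 and 1 without the 3 and the 4 libraries. The cause of these shifts was not tested.

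No called value changed sign. The members' median, which has no test, did: with limma on log2(TPM + 1) it was 0.12 in shDis3 against shLuc (-0.08 in edgeR with all 12 libraries) and 0.05 in shDis3 against shExosc10 (-0.14). Without shDis3 library 2 it was 0.01 in shDis3 against shLuc. In shExosc10 against shLuc (0.03) it was -0.03 and -0.06 without the 3 and the 4 libraries and -0.05 with the factor. Of 2457 values of single members under the alternatives, 208 had the other sign, none of them with an unadjusted p under 0.05, and 8 passed the threshold where the test with all 12 libraries did not. With the replicate block, members' medians were -0.08, 0.03 and -0.16 in the same order of comparisons, with 0 members called and 0, 1 and 1 genes called in all. Deviations of libraries with the same replicate number correlated at -0.459 to 0.686. Only number 2 was positive in every comparison, at 0.686, 0.261 and 0.277 in the same order. The other numbers showed no common pairing. Libraries of different numbers were not compared in this way, and a shared origin of the number 2 libraries was not tested. At this depth and spread with 4 libraries a group, the 95% interval lay within a 1.5-fold change for 25, 18 and 14 of the 39 members. For the rest, changes of that size were not bounded.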
